A study of Homo sapiens with 8 samples.

Results

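The genes described here are 8 genes of the androgen receptor axis and of prostate lineage, KLK2, KLK3, TMPRSS2, FOLH1, PSCA, FOXA1, NR3C1 and TP63, out of 60554 gene rows in the count files. They mark luminal prostate cells or encode other lineage factors, and were chosen with earlier results of these data known. Rows were found by gene symbol, and each symbol matched 1 row. Bulk RNA-seq gave 8 libraries from DU145 and PC3 cells, which are established lines grown from prostate cancer metastases and are widely used as androgen-independent models. There were 2 libraries each of DU145 resistant, DU145 sensitive, PC3 resistant and PC3 sensitive cells. All cells grew in RPMI medium with fetal bovine serum. Resistant cells were kept in 10 nM docetaxel, a taxane that stabilizes microtubules, dissolved in DMSO, and sensitive cells in DMSO alone. Whether the drug was withdrawn before these RNA samples were taken is not stated in the sources used. Each line has 1 resistant variant. The labels do not tell whether both libraries of a group stem from different cultures, so the p-values cover the spread among these libraries only, and that spread may be technical.

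Luminal cells of the prostate depend on the androgen receptor, a steroid-activated transcription factor that binds DNA with the pioneer factor FOXA1 and drives secretory genes such as the kallikreins KLK2 and KLK3, of which KLK3 encodes prostate-specific antigen. TMPRSS2, a membrane serine protease, is another androgen-responsive gene, and FOLH1 (prostate-specific membrane antigen) and PSCA (prostate stem cell antigen) are surface proteins of prostate tissue. NR3C1 encodes the glucocorticoid receptor, which recognizes nearly the same DNA element as the androgen receptor, and TP63 encodes p63, a transcription factor of basal cells. A comparison of resistant with sensitive cells asks which of these genes are silent in either state and which differ between the states.

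Total counts were 31685148 to 43045127 per library, so 0 counts in a library allows a level of up to 0.0697 to 0.0947 CPM (counts scaled to a library total of 1000000), taking 3 counts as the limit that a count of 0 allows. A gene is called silent here in a group where both libraries held at most 3 counts, at trace level where both were under 1 CPM, and detected otherwise. All intervals and limits treat each read as independent and cover counting error only, not the spread between libraries. The reads carry no molecular identifiers, so copies of the same molecule cannot be told apart. Of the epithelial markers EPCAM, CDH1, KRT7, KRT8, KRT18 and KRT19, all but CDH1 were detected in each group. CDH1 was at trace level in DU145 resistant libraries (12 and 17 counts, against 863 and 742 in DU145 sensitive libraries). In the other groups it was detected, with 273 and 196 counts in PC3 resistant, against 35 and 25 in PC3 sensitive libraries. The 6 markers summed to 615 and 379 CPM in DU145 resistant libraries, against 4953 and 3221 CPM in DU145 sensitive ones. In DU145 5 of 6 were lower, where 15.4% of all tested genes were. In PC3 the sums were 1466 and 1300 CPM in resistant libraries, against 1610 and 1483 CPM in sensitive ones. There 1 of 6 was called higher and 1 lower, where 18.6% and 17.0% of all tested genes were. KRT7 had 493.4 and 299.8 CPM in PC3 resistant, against 760.6 and 724.5 CPM in PC3 sensitive libraries. The lower call did not hold in every fit without 1 library. Markers of other cells were lower in sum, but not all of them were flat in either line. The 6 immune markers summed to 2.60 to 8.71 CPM in PC3 resistant and 0.724 to 1.199 CPM in PC3 sensitive libraries (3 of 5 tested higher, but 1 without PC3 sensitive replicate 1, 2 without PC3 resistant replicate 1 and 0 without PC3 resistant replicate 2, with CD3E at 0 in all 8 libraries), and the 5 endothelial markers to 21.3 to 50.6 and 6.98 to 7.70 CPM (2 of 4 tested higher and 1 without PC3 resistant replicate 2, led by PECAM1 and KDR). The 5 neuroendocrine markers summed to 31.8 to 45.0 CPM in PC3 resistant and 1.51 to 1.89 CPM in PC3 sensitive libraries (1 of 2 tested higher, NCAM1, with INSM1 at 0 in all 8 libraries), and the 6 fibroblast markers to 27.1 to 35.2 and 23.6 to 35.4 CPM. In PC3 1 of 5 tested fibroblast markers was called higher and 1 lower. LUM had 0 and 0 counts in PC3 resistant, against 25 and 56 in PC3 sensitive libraries. It had enough counts for the test only through the latter and had to differ. In DU145 all 4 of these sums were at most 9.56 CPM. There 1 of 2 tested neuroendocrine markers (SYP) and 1 of 5 tested fibroblast markers were called higher, where 12.4% of all tested genes were. Neither call held in every fit without 1 library. Of all tested genes, 18.6% were higher and 17.0% lower in PC3 resistant cells. CD79A, CD14 and LYZ of the immune markers, KDR and NCAM1 had enough counts for the test only through the PC3 resistant libraries. They had to differ there, and their calls support nothing further. The part of these markers in the results below was not tested. In bulk RNA, fewer cells of a type and less RNA per cell cannot be told apart.

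KLK3 and KLK2 lie next to each other on chromosome 19 (GRCh38, chr19:50854915-50860764 and chr19:50861568-50880567, both on the plus strand, in GENCODE 44). The 250 bases before the RefSeq start of KLK3 (chr19:50854665-50854914, RefSeq, GRCh38.p14) are shown because this promoter is the classic readout of the androgen receptor. Capitals mark AGAACA, the half-site of steroid receptor elements, which was searched on both strands as AGAACA or its reverse complement TGTTCT.
KLK3: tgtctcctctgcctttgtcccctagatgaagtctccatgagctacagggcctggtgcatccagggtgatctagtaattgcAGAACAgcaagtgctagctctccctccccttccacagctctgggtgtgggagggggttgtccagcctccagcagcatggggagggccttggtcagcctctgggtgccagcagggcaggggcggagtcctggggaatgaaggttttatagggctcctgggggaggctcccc
The half-site begins 170 bases before the start. Across the matching window of KLK2 (chr19:50873189-50873438), a global alignment found 211 of 237 paired bases identical (89%), and exons of other KLK2 transcripts in GENCODE cover 207 of its 250 bases. The 30 bases around the site, which no exon covers, are set side by side for KLK3 (chr19:50854739-50854768) and KLK2 (chr19:50873257-50873286).
KLK3: aattgcAGAACAgcaagtgctagctctccc
KLK2: atgtgtggaacagcaagtgctggctctccc
Over the 15 bases from the start of the half-site KLK2 differed at 1 position, A1G, counted from 1 at the first base of the half-site with the KLK3 base first, and its window held no match. The half-site occurred in 12.4% of 35116 RefSeq windows of this length. The forkhead core, TGTTTAC or GTAAACA, occurred in 2.98% of them and in neither KLK window. A match describes letters, not binding.

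KLK2 and KLK3 were silent in every group. Both genes had 0 counts in all 8 libraries, in resistant and sensitive cells of both lines, so no comparison and no fold was possible. With similar paralogs, reads with several matches can be lost or split by the counting, and the authors' treatment of such reads is not stated. Other kallikreins had counts. KLK4, an androgen-responsive kallikrein, had 19 and 60 counts in PC3 resistant libraries, against 0 and 0 in PC3 sensitive libraries, at least 21.4-fold higher against a floor of 3 counts over the group (adjusted p = 0.00216, edgeR). In DU145 it stayed at 2 and 2 counts in resistant and 1 and 0 in sensitive libraries. KLK6, a secreted kallikrein, had 70 and 105 counts in PC3 resistant libraries, against 7 and 2 in PC3 sensitive libraries (log2 fold change 3.87, standard error 0.65, adjusted p = 0.00108). Of 13 other kallikreins, 4 had enough counts to be tested. Of these, KLK4 and KLK6 were higher in PC3 resistant cells where 18.6% of all tested genes were, while KLK5 (48 and 15 counts in PC3 resistant, against 18 and 11 in PC3 sensitive libraries) and KLK14 (30 and 53, against 10 and 15) did not pass, and in DU145 0 passed by edgeR, 0 at an unadjusted p under 0.05 and 0 by DESeq2. KLK4 and KLK6 reached the filter only through the PC3 resistant libraries, so they had to differ there, and their p-values and number support nothing further. Both were removed by a filter of 1 CPM in 4 libraries.

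**Figure D1:**
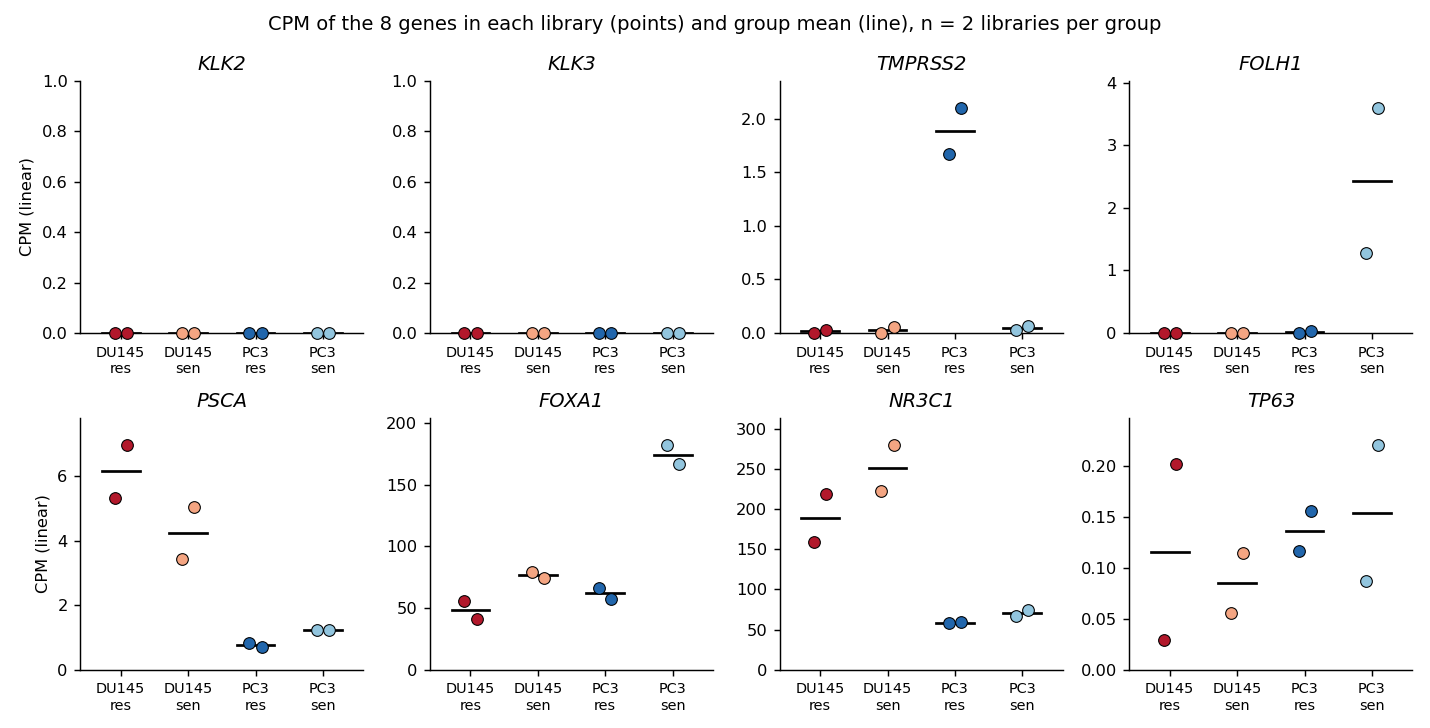
CPM (scaled counts, linear axes starting at 0) of the 8 genes in each library, with points for libraries and lines for group means, n = 2 per group, res for resistant and sen for sensitive. KLK2 and KLK3 lie at 0 throughout, TMPRSS2 stands out in PC3 resistant and FOLH1 in PC3 sensitive libraries, and FOXA1 is highest in PC3 sensitive libraries.

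Of the 8 genes, 5 had enough counts for the test and 3 (KLK2, KLK3 and TP63) did not. In DU145 1 of the 5 passed at an adjusted p under 0.05 (FOXA1, lower in resistant cells), where 27.8% of 20238 tested genes passed (12.4% higher, 15.4% lower). In PC3 3 of the 5 passed (TMPRSS2 higher, FOLH1 and FOXA1 lower), where 35.6% of tested genes passed (18.6% higher, 17.0% lower). TMPRSS2 and FOLH1 reached the filter only through the 1 group in which each is high, so they had to differ there, and their number supports nothing further.

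TMPRSS2 (chr21:41464300-41531116, minus strand) was silent in 3 groups and detected in PC3 resistant cells. It had 72 and 81 counts in PC3 resistant libraries (1.67 and 2.10 CPM), against 1 and 2 counts in PC3 sensitive libraries (0.0290 and 0.0631 CPM). Each PC3 resistant library exceeded each PC3 sensitive one, and the ratio of the summed counts scaled to library size was 41.4 (exact 95% interval 13.9 to 203). The fitted log2 fold change was 5.18 (standard error 0.73, adjusted p = 0.000387, edgeR), and 4.75 to 5.75 over the fits without 1 library. In DU145 it had 0 and 1 counts in resistant and 0 and 2 in sensitive libraries, which overlap, and no difference was detectable at this depth. TMPRSS2 overlaps MX1, an interferon-induced gene on the opposite strand, and without a stated strand setting reads of the pair cannot be told apart. MX1 had 207 and 118 counts in PC3 resistant, against 526 and 445 in PC3 sensitive libraries, so it was lower where TMPRSS2 was higher (log2 fold change -1.99, adjusted p = 0.00104).

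FOLH1 (chr11:49145092-49208638, minus strand) showed the opposite order in PC3. It had 0 and 1 counts in PC3 resistant libraries (0 and 0.0259 CPM), against 44 and 114 counts in PC3 sensitive libraries (1.27 and 3.598 CPM). The 2 sensitive libraries differed from each other, yet both lay far above the resistant ones. The summed resistant count was 0.00513 of the sensitive one after scaling (exact 95% interval 0.000129 to 0.0290), and the fitted log2 fold change was -7.35 (standard error 0.98, adjusted p = 0.000618, edgeR), with -9.49 to -6.44 over the fits without 1 library. All 4 DU145 libraries held 0 counts of FOLH1, so it was at least 56.2-fold higher in PC3 sensitive than in DU145 sensitive cells, taking 3 counts over the DU145 group as the floor. The near-identical gene FOLH1B had 3 and 8 counts in PC3 resistant libraries, against 4 and 20 in PC3 sensitive libraries, and how the counting split reads between the pair is uncertain. NAALAD2, a peptidase of the same family, was higher in PC3 resistant cells, with 364 and 255 counts in resistant and 26 and 17 in sensitive libraries (log2 fold change 3.43, standard error 0.42, adjusted p = 0.000144).

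PSCA (chr8:142670308-142682725, plus strand), a small GPI-anchored surface protein, was detected in DU145 and near the limit of 1 CPM in PC3. It had 5.32 and 6.97 CPM in DU145 resistant libraries, against 3.42 and 5.03 CPM in DU145 sensitive libraries. In PC3 it had 0.813 and 0.700 CPM in resistant libraries, against 1.25 and 1.23 CPM in sensitive libraries. The libraries of resistant and sensitive cells did not overlap in either line, with the resistant ones above in DU145 and below in PC3, but neither difference passed (DU145 log2 fold change 0.55, standard error 0.28, adjusted p = 0.179; PC3 -0.81, standard error 0.33, adjusted p = 0.0796). The 2 changes differed from each other (PC3 minus DU145 -1.35, standard error 0.43, adjusted p = 0.0334), where 34.3% of tested genes did (18.5% higher, 15.9% lower). That call was lost without any 1 of DU145 sensitive replicate 1 (adjusted p = 0.0912), DU145 resistant replicate 2 (0.0732), PC3 sensitive replicate 1 (0.0900) or 2 (0.0750), and PC3 resistant replicate 1 (0.0572) or 2 (0.0942). PSCA overlaps JRK on the opposite strand, which held 1433 to 2357 counts per library and was called in neither line, and with the strand setting of the counting not stated, reads of the pair cannot be told apart.

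FOXA1 (chr14:37589552-37596059, minus strand) was the luminal factor with the highest level among the 8 genes and the only one of them called lower in resistant cells of both lines. The DU145 call did not hold in a fit on DU145 alone. In PC3 FOXA1 had 66.2 and 57.4 CPM in resistant libraries, against 182 and 166 CPM in sensitive libraries. Both resistant libraries lay far below both sensitive ones, with a fold of 0.331 (log2 fold change -1.60, standard error 0.18, adjusted p = 9.42e-05, edgeR), and -1.69 to -1.50 over the fits without 1 library. In DU145 it had 55.9 and 40.8 CPM in resistant libraries, against 79.4 and 74.3 CPM in sensitive libraries. The DU145 libraries did not overlap and the fold was 0.637 (log2 fold change -0.65, standard error 0.18, adjusted p = 0.0211). It no longer passed once any 1 of 3 libraries was left out: the second DU145 resistant library (-0.37, adjusted p = 0.168), the first DU145 sensitive library (-0.56, adjusted p = 0.113) or the second (-0.72, adjusted p = 0.0538). The fall was larger in PC3 (PC3 minus DU145 -0.95, standard error 0.25, adjusted p = 0.0155), a call lost without DU145 sensitive replicate 2 (0.0587), DU145 resistant replicate 1 (-0.62, 0.0629), PC3 sensitive replicate 1 (0.0623) or PC3 resistant replicate 2 (0.0605). TTC6, on the opposite strand across FOXA1, had only 53 to 113 counts per library, against 1416 to 6295 for FOXA1.

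Part of the window before the RefSeq start of FOXA1 (chr14:37595349-37595499, minus strand, GRCh38.p14) is shown because FOXA1 was the gene called in both lines. These 151 bases leave out the part of the 250 that a GENCODE exon covers. The whole window held neither the steroid half-site nor the forkhead core, so no letters are in capitals.
FOXA1: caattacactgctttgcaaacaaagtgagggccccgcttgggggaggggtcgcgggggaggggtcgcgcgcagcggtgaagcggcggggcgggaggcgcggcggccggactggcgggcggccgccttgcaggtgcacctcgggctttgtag
RefSeq windows were found for 5 of the 8 genes. TP63 held 1 half-site in its window, and of the 7 windows of NR3C1 none held the half-site and 1 held the forkhead core.

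Of 11 relatives of the 8 genes 7 were tested. In DU145 4 were lower and 0 higher (0 at an unadjusted p under 0.05, 0 by DESeq2), where 15.4% of all tested genes were lower and 12.4% higher. In PC3 5 were higher and 0 lower (0 and 0), where 18.6% of all tested genes were higher and 17.0% lower. Without DU145 sensitive replicate 1, DU145 resistant replicate 1 or DU145 resistant replicate 2, the DU145 count of lower relatives was 1, 2 and 1. FOXA2, the family member of endoderm and of neuroendocrine prostate tumors, had 76.4 and 82.0 CPM in PC3 resistant libraries, against 27.1 and 17.7 CPM in PC3 sensitive libraries (log2 fold change 1.72, standard error 0.23, adjusted p = 0.000278). The order of FOXA1 and FOXA2 in CPM was thus reversed in PC3, with FOXA2 the higher in both resistant libraries and FOXA1 the higher in both sensitive ones, although CPM takes no account of gene length. In DU145 FOXA2 had only 6 and 2 counts in resistant libraries, against 18 and 18 in sensitive libraries (-2.09, standard error 0.55, adjusted p = 0.0161), a call lost without DU145 sensitive replicate 1 (0.0506) or 2 (0.0553) or DU145 resistant replicate 2 (0.114). FOXA3 had 10 and 13 counts in DU145 resistant, against 66 and 35 in DU145 sensitive libraries (-2.08, adjusted p = 0.0176), lost without DU145 sensitive replicate 1 (0.160) or DU145 resistant replicate 1 (0.0852) or 2 (0.0584), and was silent in PC3. TP73, a close relative of TP63, had 182 and 145 counts in PC3 resistant, against 11 and 15 in PC3 sensitive libraries (3.23, adjusted p = 8.65e-05) and did not pass in DU145. LYPD3, a surface protein of the family of PSCA, was lower in DU145 resistant (-3.39, adjusted p = 4.05e-05) and higher in PC3 resistant cells (1.10, adjusted p = 0.0113, lost without PC3 sensitive replicate 2, 0.0899, or PC3 resistant replicate 2, 0.0761).

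NR3C1 (chr5:143277931-143435512, minus strand) had the highest level of the 8 genes in DU145. It had 159 and 219 CPM in DU145 resistant libraries, against 223 and 280 CPM in DU145 sensitive libraries, and 58.4 and 59.2 CPM in PC3 resistant libraries, against 67.0 and 75.0 CPM in PC3 sensitive libraries. In each line both resistant libraries lay below both sensitive ones, in DU145 by a narrow margin, but neither difference passed (DU145 log2 fold change -0.41, standard error 0.16, adjusted p = 0.0749; PC3 -0.37, standard error 0.16, adjusted p = 0.0920). Without DU145 resistant replicate 2 the DU145 difference passed (-0.57, adjusted p = 0.0394), and in a fit on PC3 alone the PC3 difference did (-0.36, adjusted p = 0.0322). The difference between the 2 changes was 0.04 (standard error 0.22, adjusted p = 0.921). The line set the level more than the variant did: PC3 sensitive cells were lower than DU145 sensitive cells by a log2 fold change of -1.76 (standard error 0.16, adjusted p = 5.92e-06).

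TP63 (chr3:189631389-189897276, plus strand) was at trace level everywhere. It had 1 and 7 counts in DU145 resistant and 2 and 4 in DU145 sensitive libraries, and 5 and 6 in PC3 resistant and 3 and 7 in PC3 sensitive libraries. The groups overlapped in both lines, TP63 had too few counts to be tested, and the count ratio of resistant to sensitive was 1.37 (exact 95% interval 0.416 to 4.78) in DU145 and 0.893 (0.344 to 2.34) in PC3. Gene counts do not separate the long from the truncated isoforms of p63. Of the keratins that mark basal prostate cells with p63, KRT14 had 0 counts in all 8 libraries, and KRT5 had 6 and 2 counts in PC3 resistant libraries and at most 1 count in each other library.

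**Figure D2:**
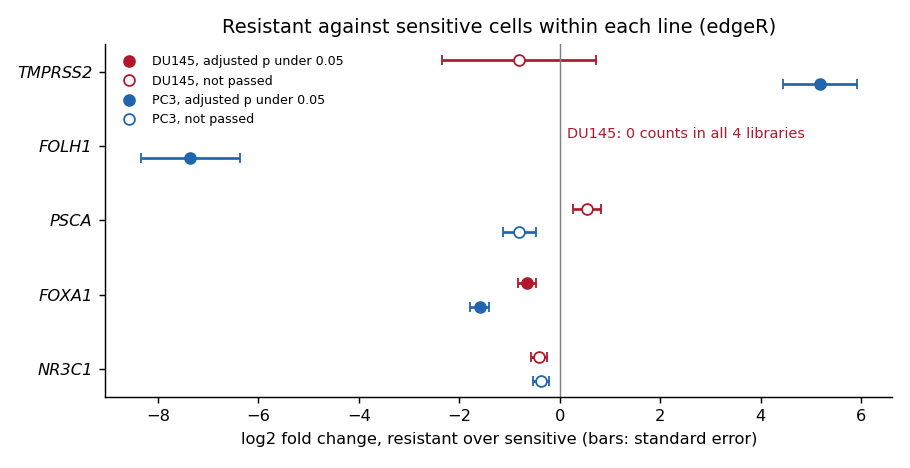
Log2 fold change of resistant over sensitive cells (x axis, bars are standard errors) for the 5 tested genes, DU145 in red and PC3 in blue, filled where the adjusted p was under 0.05 by edgeR. FOXA1 lies below 0 in both lines, TMPRSS2 and FOLH1 are far from 0 in PC3 only as tested, and the PSCA and NR3C1 points are open.

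Between the sensitive lines, 4 of the 5 tested genes differed, where 57.8% of tested genes did (28.6% higher in PC3, 29.2% lower). FOLH1, one of the 4, reached the filter only through PC3 sensitive cells and had to differ here too. FOXA1 (log2 fold change of PC3 over DU145 1.25, standard error 0.18, adjusted p = 0.000166) and FOLH1 were higher in PC3 sensitive cells, PSCA (-1.70, standard error 0.30, adjusted p = 0.000708) and NR3C1 were lower, and TMPRSS2 was silent in both. Scaled by the length of the exons (CPM per kb of the union of exons), the order was NR3C1, FOXA1, PSCA in DU145 and FOXA1, NR3C1, PSCA in PC3, in resistant and sensitive cells alike. In PC3 resistant cells FOXA1 had 14.01 ± 1.41 and NR3C1 6.42 ± 0.0669 CPM per kb, against 39.5 ± 2.56 and 7.75 ± 0.616 CPM per kb in PC3 sensitive cells (SD, n = 2 each). In DU145 resistant cells NR3C1 had 20.6 ± 4.65 and FOXA1 10.96 ± 2.43 CPM per kb, against 27.5 ± 4.402 and 17.4 ± 0.819 CPM per kb in DU145 sensitive cells. PSCA was at 3.48 ± 0.663 CPM per kb in DU145 resistant cells, against 2.40 ± 0.645 CPM per kb in DU145 sensitive cells, and under 1 CPM per kb in PC3. The FOXA1 levels of the groups ran from PC3 sensitive (174 ± 11.3 CPM) over DU145 sensitive (76.8 ± 3.62) and PC3 resistant (61.8 ± 6.24) to DU145 resistant cells (48.4 ± 10.7, SD, n = 2 each). The last pair did not differ beyond the sum of their SDs, yet their libraries did not overlap (66.2 and 57.4 against 55.9 and 40.8 CPM). The difference between the resistant lines was not tested.

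**Figure D3:**
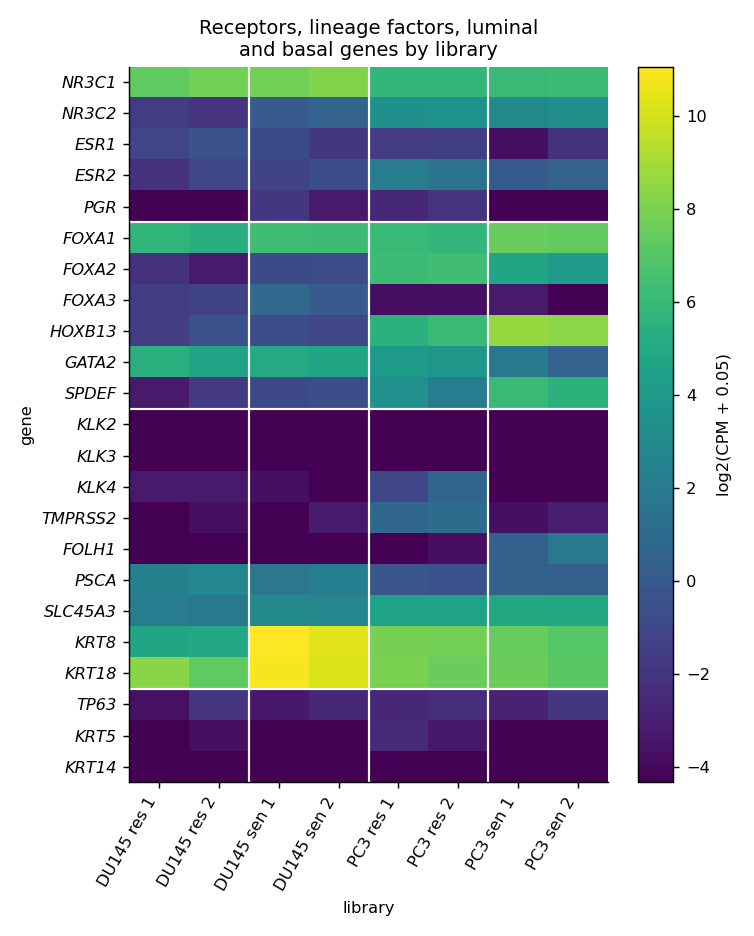
Levels of steroid receptors, lineage factors, luminal and basal genes (rows) in the 8 libraries (columns), as log2(CPM + 0.05), with white lines between groups and gene classes. NR3C1 is bright in every library while KLK2, KLK3, KRT5 and KRT14 are dark. HOXB13, SPDEF, FOLH1 and FOXA1 dim in the PC3 resistant relative to the PC3 sensitive libraries. Other rows brighten there, among them GATA2, FOXA2, TMPRSS2 and KLK4.

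Of 12 luminal lineage genes 11 were tested. In DU145, 0 were higher (0 at an unadjusted p under 0.05 and 0 by DESeq2) and 5 were lower, with a median log2 fold change of -0.84 against 0 over all tested genes, of which 12.4% were higher and 15.4% lower. In PC3, 2 were higher and 3 lower, with a median of -0.02 against 0.01 over all tested genes, of which 18.6% were higher and 17.0% lower. HOXB13, a homeobox factor of the prostate and a partner of the androgen receptor, had 44.7 and 65.8 CPM in PC3 resistant libraries, against 397 and 335 CPM in PC3 sensitive libraries (log2 fold change -2.83, standard error 0.23, adjusted p = 7.82e-06). It was under 1 CPM in all DU145 libraries. SPDEF, an ETS factor of secretory epithelium, had 475 and 166 counts in PC3 resistant libraries, against 2279 and 1522 in PC3 sensitive libraries (-3.00, standard error 0.40, adjusted p = 0.000251). In DU145 SPDEF was at trace level and did not pass (-1.73, adjusted p = 0.119). The luminal keratins KRT8 and KRT18 were lower in DU145 resistant cells, KRT8 at 27.2 and 30.8 CPM in resistant libraries, against 2150 and 1271 CPM in sensitive libraries (-5.88, adjusted p = 8.24e-07), and KRT18 with -2.65 (adjusted p = 0.000475). In PC3 neither passed (KRT8 0.53, adjusted p = 0.12, and KRT18 0.29, adjusted p = 0.552). Chosen for the size of their change, AGR2, a secretory pathway protein, was the largest rise in PC3 (3.31, adjusted p = 1.22e-05) and DPP4, a surface peptidase, the largest fall (-3.28, adjusted p = 4.85e-05). GATA2, named after its value was seen, was the other gene called higher in PC3 (2.48, adjusted p = 0.00104). In DU145 GATA2 did not pass (0.24, adjusted p = 0.665).

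The 26 androgen-responsive genes, 23 of them tested, moved in both directions. In DU145 the test called 7 higher and 8 lower, and in PC3 7 higher and 5 lower, with medians of -0.20 and 0.15, against 0 and 0.01 over all tested genes. The share called was 65.2% in DU145 and 52.2% in PC3, where 27.8% and 35.6% of all tested genes were called. The DU145 count of lower genes was 4 or 5 without any 1 of the 4 DU145 libraries. In PC3, leaving out sensitive replicate 1 or 2 gave 3 or 0 lower genes, and leaving out resistant replicate 1 or 2 gave 3 or 1. SLC45A3 (prostein) was lower in DU145 resistant cells, with 4.44 and 3.63 CPM in resistant and 7.99 and 6.90 CPM in sensitive libraries (-0.87, adjusted p = 0.00827), lost without DU145 sensitive replicate 1 (0.0595) or DU145 resistant replicate 2 (0.0688). FKBP5, a chaperone induced by both androgen and glucocorticoid receptors, had 123 and 92.1 CPM in DU145 resistant, against 167 and 126 CPM in DU145 sensitive libraries, and 74.1 and 49.5 CPM in PC3 resistant, against 63.0 and 58.0 CPM in PC3 sensitive libraries, and passed in neither line. The prostaglandin receptor gene PTGER4, named for its size, was the largest rise in DU145 and was higher in both lines (1.80, adjusted p = 0.000123, and 1.95 in PC3, adjusted p = 3.93e-05), and C1orf116 was the largest fall in both (-3.47, adjusted p = 0.00114, and -2.13 in PC3, adjusted p = 0.00644, lost without PC3 sensitive replicate 2, -1.22, 0.0810, or PC3 resistant replicate 2, 0.0509).

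Of 17 glucocorticoid-induced genes 16 were tested. In DU145 2 were higher and 5 lower, with a median of -0.23, and in PC3 2 were higher and 2 lower, with a median of 0.17. The share called was 43.8% in DU145, where it was 27.8% over all tested genes, and 25% in PC3, below the 35.6% of all tested genes. The DU145 count of lower genes was 3 without DU145 sensitive replicate 2. In PC3, 4 genes were called higher when DU145 resistant replicate 1 or 2 was left out, and 1 lower when replicate 2 of either PC3 group was. SGK1, a kinase gene induced by corticosteroids, had 66.8 and 53.3 CPM in DU145 resistant libraries, against 6.32 and 4.20 CPM in DU145 sensitive libraries (3.52, standard error 0.24, adjusted p = 4.24e-06). TSC22D3, the gene of the glucocorticoid-induced leucine zipper, had 6.28 and 26.2 CPM in DU145 resistant, against 4.95 and 13.1 CPM in DU145 sensitive libraries, which overlap, and 21.8 and 32.2 CPM in PC3 resistant, against 9.73 and 11.4 CPM in PC3 sensitive libraries, and passed in neither line. DUSP1, a phosphatase gene, was lower in PC3 resistant cells (-0.83, adjusted p = 0.0353), a call lost without PC3 sensitive replicate 2 (-0.29, 0.434) or PC3 resistant replicate 1 (0.138) or 2 (0.0970). KLF9, a zinc finger factor and the largest rise in PC3, had 11.1 and 15.1 CPM in PC3 resistant libraries, against 0.898 and 0.789 CPM in PC3 sensitive libraries (3.85, adjusted p = 0.000273). PER1, a clock gene that glucocorticoids induce, had 10.9 and 20.2 CPM in DU145 resistant, against 10.2 and 16.9 CPM in DU145 sensitive libraries, and 25.2 and 24.5 CPM in PC3 resistant, against 15.96 and 18.97 CPM in PC3 sensitive libraries, and passed in neither line. TGM2, a transglutaminase, was the largest fall in DU145 (-3.79, adjusted p = 8.11e-07) and higher in PC3 resistant cells (0.94, adjusted p = 0.00197), and NFKBIA, an inhibitor of NF-kB, was the largest fall in PC3 (-0.87, adjusted p = 0.000544). In DU145 KLF9 was lower (-1.50, adjusted p = 0.0246), lost without DU145 sensitive replicate 2 (0.138) or DU145 resistant replicate 1 (-0.92, 0.0736).

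Among the other steroid receptors, NR3C2, the mineralocorticoid receptor and closest relative of NR3C1, had 9 and 7 counts in DU145 resistant libraries, against 37 and 49 in DU145 sensitive libraries (-2.36, standard error 0.36, adjusted p = 0.000837). In PC3 it had 10.7 and 12.2 CPM in resistant and 8.22 and 9.75 CPM in sensitive libraries and did not pass (0.25, adjusted p = 0.464). ESR2, an estrogen receptor, was higher in PC3 resistant cells, with 185 and 115 counts in resistant and 34 and 43 in sensitive libraries (1.54, adjusted p = 0.0126), lost without PC3 sensitive replicate 1 (0.0974) or PC3 resistant replicate 1 (0.0888). PGR, the progesterone receptor, had 0 and 0 counts in DU145 resistant, against 8 and 2 in DU145 sensitive libraries, and 5 and 8 in PC3 resistant, against 0 and 0 in PC3 sensitive libraries. PGR did not have enough counts to be tested. ESR1 had at most 23 counts in any library and passed in neither line. Of 16 cofactors, chaperones and steroid-converting enzymes 15 were tested. In DU145 2 were lower and 0 higher by edgeR (3 higher at an unadjusted p under 0.05 and 2 by DESeq2), and in PC3 2 were higher and 4 lower. The share called was 13.3% in DU145, below the 27.8% of all tested genes, and 40% in PC3, near the 35.6% of all tested genes. Leaving out either PC3 sensitive library or PC3 resistant replicate 2 gave 0 lower genes in PC3, and leaving out PC3 resistant replicate 1 gave 2. Leaving out PC3 sensitive replicate 2 gave 1 higher gene. The coactivator NCOA2 was lower in DU145 resistant cells (-0.88, adjusted p = 0.00161), with 63.2 and 81.4 CPM in resistant and 131 and 137 CPM in sensitive libraries, while NCOA1 (43 to 64.5 CPM in resistant and 40.4 to 50.5 CPM in sensitive libraries), NCOA3 (77.9 to 139 and 89.2 to 111 CPM) and NCOA4 (124 to 221 and 128 to 252 CPM) passed in neither line. HSD11B2, which inactivates cortisol, was the largest rise in PC3, with 207 and 130 counts in resistant and 6 and 12 in sensitive libraries (3.79, standard error 0.42, adjusted p = 8e-05).

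Basal genes ranged from silent to detected. KRT17, like KRT14, was silent in all groups and DSG3, a desmosomal cadherin, at trace level in all, while TRIM29 had at most 7 counts in any library. Of 18 basal lineage genes 14 were tested. In DU145 5 were higher and 3 lower, with a median of 0.30, and in PC3 4 were higher and 2 lower, with a median of 0.03. The share called was 57.1% in DU145 and 42.9% in PC3, the PC3 share being near that of all tested genes (27.8% in DU145 and 35.6% in PC3). In PC3, 2 genes were called higher when sensitive replicate 1 was left out, and 1 lower when any 1 of the 4 PC3 libraries was. LAMB3, a chain of laminin-332, was higher in both lines (1.86, adjusted p = 2.68e-05, and 0.61 in PC3, adjusted p = 0.0131, lost without PC3 sensitive replicate 1, 0.40, 0.164, or PC3 resistant replicate 1, 0.0549). COL17A1, a hemidesmosomal collagen and the largest rise in DU145, had 607 and 481 counts in DU145 resistant, against 87 and 61 in DU145 sensitive libraries (2.93, adjusted p = 0.000483), and 333 and 514 in PC3 resistant, against 18 and 43 in PC3 sensitive libraries (3.40, adjusted p = 0.000212). The laminin receptor chain ITGA6 was higher in DU145 resistant cells (0.76, adjusted p = 0.00702) and its partner ITGB4 lower (-1.03, adjusted p = 0.0481, lost without DU145 sensitive replicate 2, 0.245, or DU145 resistant replicate 1, 0.215), and neither passed in PC3. KRT15 had 1.14 and 0.778 CPM in DU145 resistant, against 0.668 and 2.33 CPM in DU145 sensitive libraries, and 15.4 and 14.8 CPM in PC3 resistant, against 14.5 and 13.8 CPM in PC3 sensitive libraries, and passed in neither line. SERPINB5 (maspin) was the largest fall in DU145, with 9 and 3 counts in resistant and 25 and 23 in sensitive libraries (-1.93, adjusted p = 0.00819, lost without DU145 resistant replicate 2, -1.27, 0.0617). The neurotrophin receptor NGFR was the largest rise in PC3, with 158 and 171 counts in resistant and 11 and 7 in sensitive libraries (3.78, adjusted p = 0.00012). S100A2, a calcium-binding protein gene, was higher in DU145 resistant (2.59, adjusted p = 8.11e-05) and lower in PC3 resistant cells (-1.36, adjusted p = 0.00211, where it was the largest fall).

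**Figure D4:**
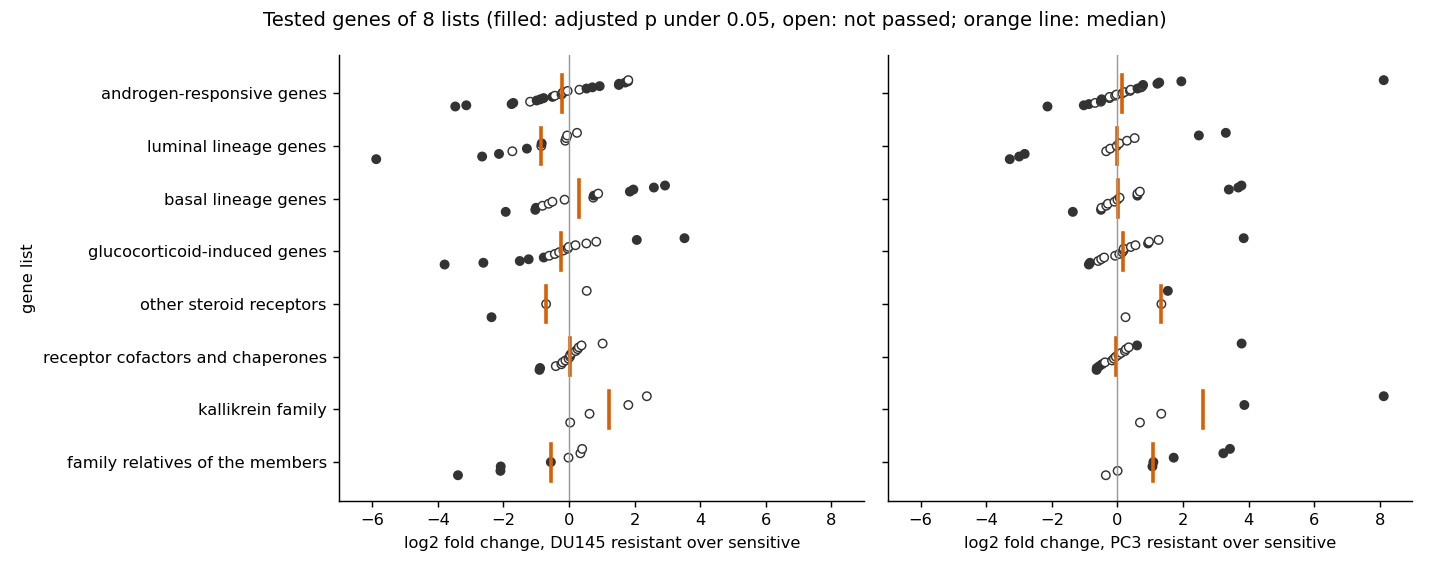
Log2 fold change of resistant over sensitive cells (x axis) for the tested genes of 8 lists (y axis), DU145 on the left and PC3 on the right, filled where the adjusted p was under 0.05 and with an orange line at the list median. The luminal lineage median is -0.84 in DU145 and -0.02 in PC3, and KLK4, whose fitted value of 8.12 has no counts in PC3 sensitive libraries behind it, is the point farthest to the right.

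Neighbouring genes were looked up for the 5 tested members. Of the 2 tested protein-coding genes on each side of FOXA1, 1 was higher and 1 lower in DU145 resistant cells and 2 were lower in PC3 resistant cells. In DU145 12.4% of all tested genes were higher and 15.4% lower. Around TMPRSS2, which was higher in PC3 resistant cells, 3 of the 4 neighbours were lower there, and around FOLH1, which was lower there, 2 of the 4 were lower, where 17.0% of all tested genes were lower in PC3. Around PSCA, LY6K was higher in both lines (1.59, and 2.18 in PC3), THEM6 lower in DU145 (-0.48) and higher in PC3 (0.59), and ARC higher in PC3 (2.06). JRK passed in neither line. Around NR3C1, ARHGAP26 was higher in DU145 (1.81), and FGF1 was higher in DU145 (3.41) and lower in PC3 (-2.45). YIPF5 and KCTD16 passed in neither line. Of all tested genes 18.6% were higher in PC3. The neighbours of the 5 members lie up to 8154 kb away, measured between gene midpoints.

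By the root mean square difference of centred log2 CPM over the 8 libraries, the genes with a pattern most like FOXA1 were SYNGR2 (0.10), RASSF7 (0.18) and DDX60L (0.22). SYNGR2, a synaptogyrin, had mean levels of 103 CPM in PC3 resistant cells, against 282 CPM in PC3 sensitive cells, and 82.0 CPM in DU145 resistant cells, against 141 CPM in DU145 sensitive cells. The nearest to NR3C1 were DCAF10 (0.11) and FOSL2 (0.11), and the nearest to PSCA were ARNTL (0.19), ANKRD18A (0.19) and LATS2 (0.24).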

How the data were processed

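Total RNA of 8 samples was sequenced after SMART-seq library preparation. The authors deposited unnormalized gene counts, with a separate file for each sample. The submitters' processing notes name Bowtie and hg38. The Bowtie version, the counting tool, annotation, strand setting and handling of multiply matching reads are not stated in the sources used. Groups came from the sample labels.

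Genes passing edgeR's filterByExpr (20238) were scaled by TMM (factors 0.951 to 1.04) and fitted in edgeR 4.0.16 (R 4.3.3), using all 8 libraries and a mean per group. Contrasts were tested by the quasi-likelihood test, two-sided, with Benjamini-Hochberg adjustment over all tested genes at 0.05. The standard error was taken as |log2 fold change| over the root of the F statistic. With 2 libraries per group no exact permutation test can pass. The steps were tested on simulated data. Positions and exon lengths came from GENCODE 44, which held all 8 IDs. The members and the lists were chosen with earlier results of these data known. Of each list the first 4 tested genes in written order were to be named, with the largest called rise and fall per line, and for members of at least 1 CPM the 3 most similar genes of at least 8 CPM. Promoter windows stop at the RefSeq start. Alternatives were RLE scaling, DESeq2 1.42.0, other filters, fits on 1 line, a replicate block, a threshold of 0.01 and each library left out. Some genes that the naming rule selects are not reported here.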

Additional observations from a re-analysis of the deposited data

Results flagged for a closer look

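The PC3 change minus the DU145 change, tested as a contrast of its own in edgeR, passed for 3 of the 5 tested genes: TMPRSS2 (5.99, adjusted p = 0.0402), PSCA (-1.35, adjusted p = 0.0334) and FOXA1 (-0.95, adjusted p = 0.0155). Of all tested genes 34.3% passed. TMPRSS2, like FOLH1 below, reached the filter only through the 1 PC3 group where it is high. It had to differ there, and its call supports nothing further. For TMPRSS2 the DU145 change rests on 1 count in resistant and 2 counts in sensitive libraries, and the call was lost without 1 of 6 libraries, with adjusted p of 0.948 without DU145 sensitive replicate 2, 0.0761 without DU145 resistant replicate 1, 0.0821 and 0.0554 without PC3 sensitive replicates 1 and 2, and 0.0608 and 0.0814 without PC3 resistant replicates 1 and 2. For FOLH1, at 0 counts in all DU145 libraries, edgeR gave no usable estimate, while DESeq2 gave -7.77 (adjusted p = 0.0163).

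Of the other tested genes, those named in the text are listed here, leaving out genes named only as cell type markers or neighbours. Some lists held further called genes. Among the named luminal genes the lines differed for HOXB13 (-2.74), DPP4 (-2.44), AGR2 (3.36), GATA2 (2.24), KRT8 (6.41) and KRT18 (2.94). The whole luminal list had 6 called higher and 2 lower. Among the named basal genes they differed for S100A2 (-3.95), LAMB3 (-1.25), ITGA6 (-0.69), NGFR (3.04), ITGB4 (1.71) and SERPINB5 (1.64). The whole basal list had 4 called higher and 4 lower. Among the named glucocorticoid-induced genes they differed for SGK1 (-3.37), DUSP1 (-1.36), NFKBIA (-0.57), KLF9 (5.35) and TGM2 (4.73). That whole list had 4 called higher and 4 lower. Named receptors and cofactors that differed were NR3C2 (2.61), ESR2 (2.24), NCOA2 (0.91), NCOA3 (0.63) and HSD11B2 (2.76), while MED1, a mediator subunit named after its value was seen, went the other way (-0.81, adjusted p = 0.0111). Relatives of the 8 genes that differed were FOXA2 (3.81), TP73 (2.83), NAALAD2 (3.45) and LYPD3 (4.48). All are PC3 minus DU145 on the log2 scale with an adjusted p under 0.05, where 34.3% of tested genes passed.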

How the results depend on the processing

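The count of called genes among the 8 was 1 in DU145, 3 in PC3, 3 for the difference between the lines and 4 between the sensitive lines. In DU145 it was 0 in a fit on DU145 alone and at an adjusted p under 0.01, and 0 to 1 with 1 library left out (0 without DU145 sensitive replicate 1 or 2, and NR3C1 in place of FOXA1 without DU145 resistant replicate 2). In PC3 it was 1 with a filter of 1 CPM in 4 libraries, which removes TMPRSS2 and FOLH1. For the difference it was 0 at an adjusted p under 0.01 and 0 to 2 with 1 library left out. With replicate number as a block, NR3C1 passed in DU145 (-0.41, adjusted p = 0.0185) and PC3 (-0.37, adjusted p = 0.0281), so the DU145 count was 2. The labels give no pairing by number. Deviations of same-numbered libraries had a correlation over genes of 0.323 for DU145 and of 0.0861 for PC3. NR3C1 in PC3 also passed in a fit on PC3 alone (-0.36, adjusted p = 0.0322).

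With 1 library left out, values that were not called changed sign: TMPRSS2 ranged from -3.18 to 2.37 in DU145 and from -0.23 to 3.87 between the sensitive lines, and the NR3C1 difference between the lines from -0.12 to 0.20. RLE scaling changed no call of the 8 genes, and DESeq2 added FOLH1 to the difference. Of the calls of named list genes under alternatives, 607 kept their side and 33 were lost. The cause of these changes was not tested. Depth limits TMPRSS2, FOLH1 and TP63, whose lower groups hold a few counts.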
